A study of Mus musculus with 8 samples.

Results

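The zinc finger genes that mouse nomenclature lists under the symbol Zfp and a number below 500 were followed in cultured hippocampal neurons held in raised potassium. Genes were taken by symbol from probe sets annotated to 1 gene, Zfp36 was left out, and where a gene had several probe sets the one with the highest mean over the 8 arrays stood for it. This gave 161 of 22180 genes, of which 160 are protein coding in RefSeq and 1, Zfp389, is a transcribed pseudogene. Members were selected on their symbol, and their probe sets were chosen by the mean log2 value over all 8 arrays. The set itself was put forward after Zfp genes had been seen to lie lower after KCl on these same arrays, so its counts and medians describe these arrays and support nothing further.

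The neurons came from C57BL/6J mice at embryonic stage E18.5, a common inbred strain with no transgene or deletion named in the labels. They spent 11 days in vitro in medium with AraC, a nucleoside that kills dividing cells. Of the 8 Affymetrix whole-transcript arrays, 4 held RNA of untreated cultures and 4 that of cultures in 55 mM KCl for 4 h, with mouse numbers that all differ. The labels do not say whether a number stands for 1 embryo, a litter or a pool, so p-values measure the spread between these arrays.

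Zinc finger proteins of the C2H2 kind carry tandem fingers, each folded around a zinc ion, that read a short stretch of DNA. In many mammalian members a KRAB domain recruits the scaffold protein Trim28 (KAP1), which brings in the histone methyltransferase Setdb1 and heterochromatin proteins and silences the bound site, often a transposable element. Many KRAB zinc finger genes arose by tandem duplication and still lie in clusters, while others with Zfp symbols carry a BTB or no repressor domain, or bind RNA. Potassium depolarises neurons and lets calcium in, and that calcium acts on gene transcription through CREB, which binds the element called CRE, and through the induced Fos and Jun proteins, which bind AP-1 elements.

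Promoter sequences from RefSeq (assembly GRCm38.p6) are shown for the 3 members that fell furthest and for the 1 that rose, because all 4 kept their call when any single array was left out. Each line gives the 250 bases before a transcript start, 5′ to 3′, with every CG dinucleotide in capitals. For Zfp131, which has 2 starts, the window of the outer start is given.
Zfp39, chr11:58904226-58904475, minus strand: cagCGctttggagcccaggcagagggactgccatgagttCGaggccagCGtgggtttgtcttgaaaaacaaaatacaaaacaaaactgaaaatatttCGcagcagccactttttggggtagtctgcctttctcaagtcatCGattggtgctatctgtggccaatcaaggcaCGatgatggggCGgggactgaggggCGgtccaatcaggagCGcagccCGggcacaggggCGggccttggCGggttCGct
Zfp11, chr5:129670089-129670338, minus strand: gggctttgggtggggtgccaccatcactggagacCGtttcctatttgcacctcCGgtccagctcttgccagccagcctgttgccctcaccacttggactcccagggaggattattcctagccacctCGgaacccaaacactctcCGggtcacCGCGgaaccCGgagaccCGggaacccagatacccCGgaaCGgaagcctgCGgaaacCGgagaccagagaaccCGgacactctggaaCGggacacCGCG
Zfp60, chr7:27731159-27731408, plus strand: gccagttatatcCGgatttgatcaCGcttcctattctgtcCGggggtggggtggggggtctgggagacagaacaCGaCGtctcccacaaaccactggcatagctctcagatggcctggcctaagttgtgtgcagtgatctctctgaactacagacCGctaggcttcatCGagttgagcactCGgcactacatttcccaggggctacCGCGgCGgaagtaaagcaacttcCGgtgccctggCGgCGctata
Zfp131, chr13:119790733-119790982, minus strand: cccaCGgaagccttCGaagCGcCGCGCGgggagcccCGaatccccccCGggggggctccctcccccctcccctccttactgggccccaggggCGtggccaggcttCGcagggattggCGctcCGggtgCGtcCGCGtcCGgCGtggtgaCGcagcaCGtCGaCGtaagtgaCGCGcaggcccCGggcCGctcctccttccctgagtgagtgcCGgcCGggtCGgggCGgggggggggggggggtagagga
The windows of the falling genes hold 13, 16 and 14 CG dinucleotides in that order, and that of Zfp131 holds 29.

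After 4 h of KCl, 17 of the 161 members fell (10.6%) and 1, Zfp131, rose, while 143 did not pass the test, which was limma with Benjamini-Hochberg adjustment over all 22180 genes at a threshold of 0.05. Over all genes tested, 1.02% fell and 1.34% rose. The median log2 change was -0.24 over the members, with quartiles at -0.51 and -0.01, against -0.01 over all genes. Of the members, 123 (76.4%) had a change below 0, against 52.9% of all genes. In RNA from a whole culture, fewer cells of a type and less RNA per cell cannot be told apart.

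**Figure D1:**
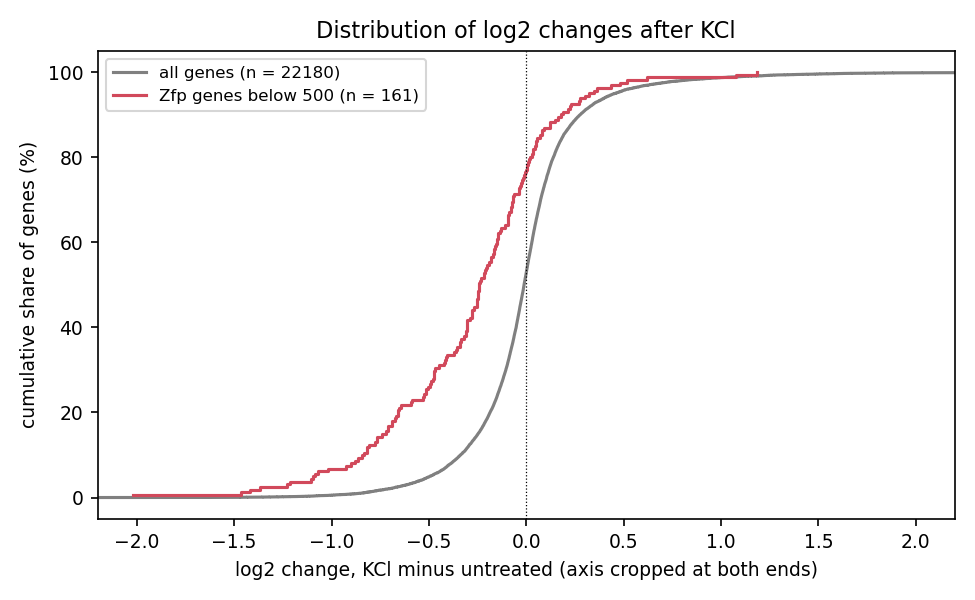
Cumulative share of genes (vertical axis, %) by log2 change after KCl (horizontal axis, cropped at both ends) for the 161 members in red and all 22180 genes in grey. The red line lies to the left, with a median of -0.24 against -0.01.

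The arrays did not overlap between groups for 37 members. All 4 KCl arrays lay below all 4 untreated arrays for 34 members, which include all 17 that fell, and 4.33% of all genes were separated in that way. They lay above for 3 members, Zfp131, Zfp184 and Zfp326, against 3.83% of all genes. KCl was lower in 4 of 4 same-numbered pairs for 55 members (13.2% of all genes) and higher in all 4 for 7 (11% of all genes). With the replicate number as a block, 25 members fell and 2 rose, where 2.01% of all genes fell and 2.43% rose.

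Zfp39 (probe set 17263200) had the largest fall. Its log2 values were 6.81, 7.52, 7.72 and 7.31 in untreated replicates 1 to 4 and 5.54, 5.61, 5.11 and 5.03 in the KCl replicates. Every KCl array lay more than 1 unit below every untreated one. The level went from 7.34 ± 0.39 to 5.32 ± 0.29 (SD, n = 4 each), to 0.246 of untreated (log2 change -2.02, SE 0.217, limma adjusted p = 0.00381). The dimmer of its 2 probe sets, 17250141, stood at -0.07 (SE 0.0917), so the fall is that of the brighter one. The dimmer one averaged 4.14, below the median of every array (4.69 to 4.82), where RMA compresses differences. The part of compression in its small change was not tested. The called members Zfp128 and Zfp273 also averaged below these medians, at 4.66 and 4.39.

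Zfp11 (17453106) stood at 6.29, 6.59, 7.05 and 6.93 in untreated and at 5.27, 5.22, 5.51 and 5.00 in KCl arrays. The groups lay apart, and the fall was to 0.362 of untreated (log2 change -1.47, SE 0.183, adjusted p = 0.00692). Zfp60 (17475685), a KRAB zinc finger gene, read 6.22, 5.97, 6.42 and 6.78 untreated and 4.99, 4.80, 5.00 and 4.92 after KCl. Its KCl arrays were nearly level, with an SD of 0.095 against 0.343 in the untreated ones, and the log2 change was -1.42 (SE 0.165, adjusted p = 0.00514).

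Zfp329 (17486570) and Zfp120 (17392633) fell by about 1 log2 unit. Zfp329 read 6.74, 7.29, 7.19 and 6.73 untreated and 5.96, 6.05, 5.72 and 5.95 after KCl (log2 change -1.07, SE 0.154, adjusted p = 0.0129). Zfp120 read 5.95, 5.66, 5.90 and 5.80 untreated and 4.96, 4.87, 4.27 and 4.85 after KCl (log2 change -1.09, SE 0.159, adjusted p = 0.0135). Both genes were separated on all arrays, with KCl replicate 3 the lowest array for each.

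Zfp131 (17296537), which encodes a transcription factor with a BTB domain, was the member that rose. It read 7.64, 7.98, 8.22 and 7.98 in untreated arrays and 8.94, 9.04, 9.07 and 9.08 in KCl arrays. All KCl arrays lay above the untreated ones and within a narrow band, and the rise was 2.11-fold (7.95 ± 0.241 to 9.03 ± 0.065, SD, n = 4 each; log2 change 1.08, SE 0.126, adjusted p = 0.00519). Zfp39, Zfp11, Zfp60, Zfp329, Zfp120 and Zfp131 are the 6 of 18 called members that passed in all 8 fits with 1 array left out, at adjusted p up to 0.0494.

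**Figure D2:**
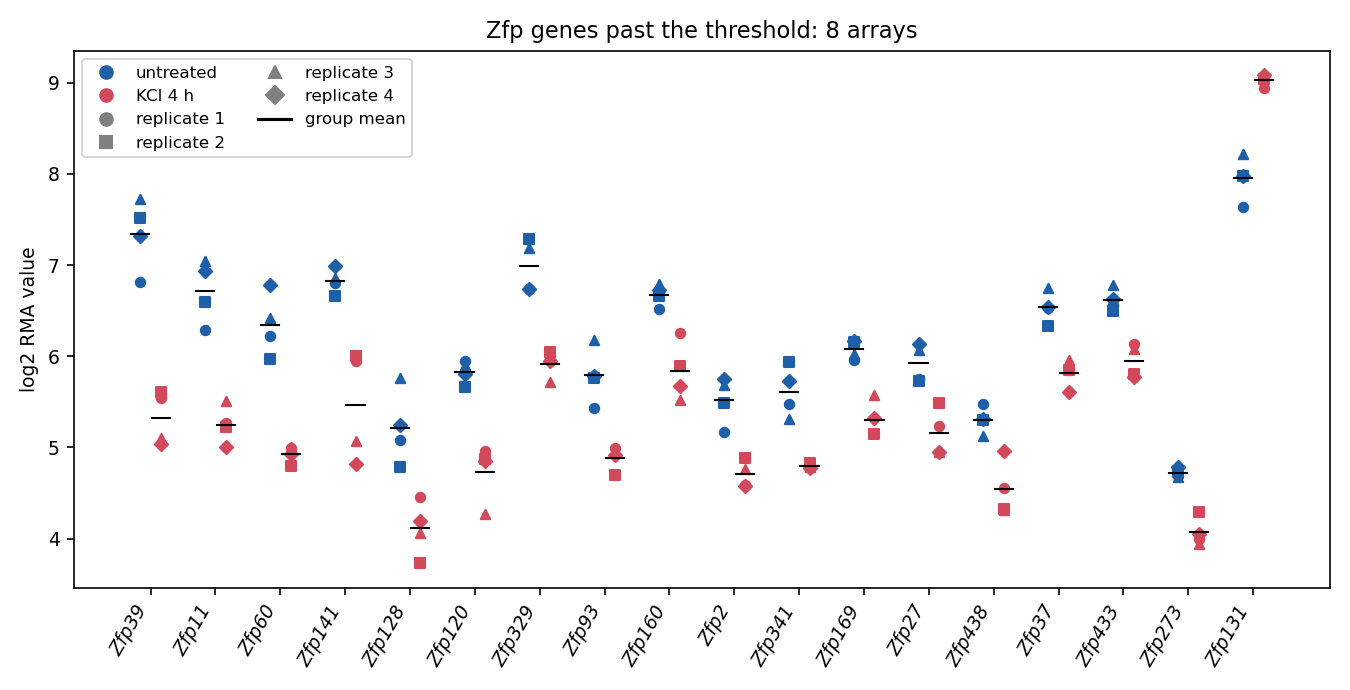
Log2 RMA values (vertical axis) of the 18 members past the threshold on each array, with untreated arrays in blue, KCl arrays in red, a marker shape for each replicate number and black lines at group means. Zfp39 at the left fell from 7.34 to 5.32, Zfp131 at the right rose from 7.95 to 9.03, and the groups overlap for none of the 18.

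The other 12 called members all fell and lost their call in at least 1 of those 8 fits. Zfp141 (17490050), which fell to 0.388 of untreated, had KCl arrays of 2 levels: 5.94 and 6.01 in replicates 1 and 2, and 5.07 and 4.82 in replicates 3 and 4. Its untreated arrays spanned 6.66 to 6.99 (log2 change -1.37, SE 0.269, adjusted p = 0.04), and its call held in 2 fits, those without KCl replicate 1 or 2 (elsewhere up to 0.115). Zfp128 (17473779) spanned 4.79 to 5.76 untreated and 3.73 to 4.46 after KCl (-1.11, SE 0.226, adjusted p = 0.0452). The call of Zfp128 held only without KCl replicate 1 (up to 0.13 in the other 7 fits).

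Zfp169 and Zfp273, Zfp37, Zfp341 and Zfp93 kept their call in 3 to 7 of the fits. Zfp169 (17292316) spanned 5.96 to 6.16 untreated and 5.15 to 5.57 after KCl (log2 change -0.78, SE 0.117, adjusted p = 0.0157) and missed the threshold without untreated replicate 2 (0.0507). Zfp273 (17288344) spanned 4.67 to 4.79 and 3.94 to 4.30 (-0.65, SE 0.0992, adjusted p = 0.0158), the smallest of the 17 falls, and was lost without untreated replicate 2 or KCl replicate 3 or 4 (up to 0.0562). Both had tight untreated arrays.

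Zfp37 (17426117), a KRAB zinc finger gene, spanned 6.33 to 6.74 untreated and 5.61 to 5.95 after KCl (log2 change -0.72, adjusted p = 0.0191), and was lost without untreated replicate 3 or 4 or KCl replicate 4 (up to 0.0557). Zfp341 (17378242), whose protein is needed for STAT3 expression in immune cells, read 4.80, 4.83, 4.78 and 4.78 after KCl and 5.31 to 5.94 untreated (-0.82, adjusted p = 0.0216). Its 4 KCl values were nearly equal. Leaving out untreated replicate 4 or KCl replicate 2, 3 or 4 ended its call (up to 0.072), as did averaging its probe sets (0.0622). The dimmer of these stood at -0.02, at a low mean level of 3.95. Zfp93 (17474924) spanned 5.43 to 6.18 and 4.69 to 5.00 (-0.90, adjusted p = 0.0251), and was lost without replicate 2 or 4 of either group or KCl replicate 3 (up to 0.0744).

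The remaining 5 passed in 1 or 2 of the 8 fits. Zfp433 (-0.67, adjusted p = 0.0255) and Zfp160 (-0.84, adjusted p = 0.0341) passed only without an array numbered 1, with values up to 0.0769 and 0.103 otherwise. Zfp2 (-0.82, adjusted p = 0.0264) passed only without untreated replicate 1 or KCl replicate 2 (up to 0.0825). Zfp27 (-0.76, adjusted p = 0.0461) passed only without KCl replicate 2 (up to 0.134) and is the 1 called member that missed the threshold with the replicate block (0.0694). Zfp438 (-0.76, adjusted p = 0.0474) passed only without KCl replicate 4 (up to 0.135). In count, 7 members fell without untreated replicate 2 or 4 or KCl replicate 3 or 4, 9 without untreated replicate 3, 12 without KCl replicate 2, 17 without KCl replicate 1 and 18 without untreated replicate 1. The shares of all genes called in these 8 fits were not counted. These counts therefore cannot be read as particular to the members.

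With the replicate block, 10 further members passed, 9 of them lower. They include Zfp72 (log2 change -0.92, adjusted p = 0.0119 with the block and 0.0562 without), Zfp454 (-0.83, 0.012 and 0.102), Zfp40 (-1.21, 0.0345 and 0.122) and Zfp280b (-0.64, 0.0454 and 0.0565). The others were Zfp113, Zfp180, Zfp318, Zfp334 and Zfp354c. Zfp40 read 7.33, 7.75, 8.42 and 8.61 untreated and 6.19, 7.37, 6.76 and 6.94 after KCl, lower in every pair although the groups overlap.

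The tenth was Zfp184 (17285715), which was higher. Its untreated arrays read 4.64, 4.37, 4.87 and 4.91 and its KCl arrays 5.16, 5.56, 6.51 and 6.29. The groups lay apart, with the smallest difference in replicate 1, and the log2 change of 1.18 was the highest of any member (SE 0.291, adjusted p = 0.0855 without and 0.023 with the block). Its second probe set had a log2 change of 0.12, at a low mean level of 4.37. Zfp157, the lowest of the members outside the call, read 7.88, 8.66, 9.46 and 9.50 untreated against 7.70, 7.64, 7.66 and 7.60 after KCl. Its KCl arrays were nearly level while its untreated arrays spread widely (log2 change -1.23, SE 0.33, adjusted p = 0.117), and it passed without untreated replicate 1 (0.0119).

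The difference was not of one size in the 4 same-numbered pairs. The median over the 161 members was -0.08 in pair 1, -0.20 in pair 2, -0.44 in pair 3 and -0.35 in pair 4, while all genes had medians of -0.02 to -0.01. The median member level was 5.48, 5.48, 5.80 and 5.67 in untreated replicates 1 to 4 and 5.33, 5.22, 5.12 and 4.97 in the KCl replicates. Untreated replicates 3 and 4 were thus the highest and KCl replicates 3 and 4 the lowest. The difference in pair 3 lay below that in pair 1 for 120 of the 161 members.

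Both arrays numbered 1 stood apart on the first principal component of all genes, at -48.6 and -43.2 against -4.58 to 26.6 for the other 6. Without them the median over the members was -0.33, 16 members fell (0.974% of all genes) and 1 rose (1.12% of all genes). Zfp128, Zfp141, Zfp27, Zfp273, Zfp341, Zfp37 and Zfp438 then missed the threshold, at adjusted p up to 0.134, and Zfp157, Zfp280b, Zfp287, Zfp454, Zfp458 and Zfp84 passed. Zfp84 read 7.98, 8.08, 8.34 and 7.99 untreated and 7.86, 7.33, 6.73 and 7.03 after KCl, so its pair 1 difference was far smaller than the other 3. The part of culture or array differences in this pattern was not tested.

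**Figure D3:**
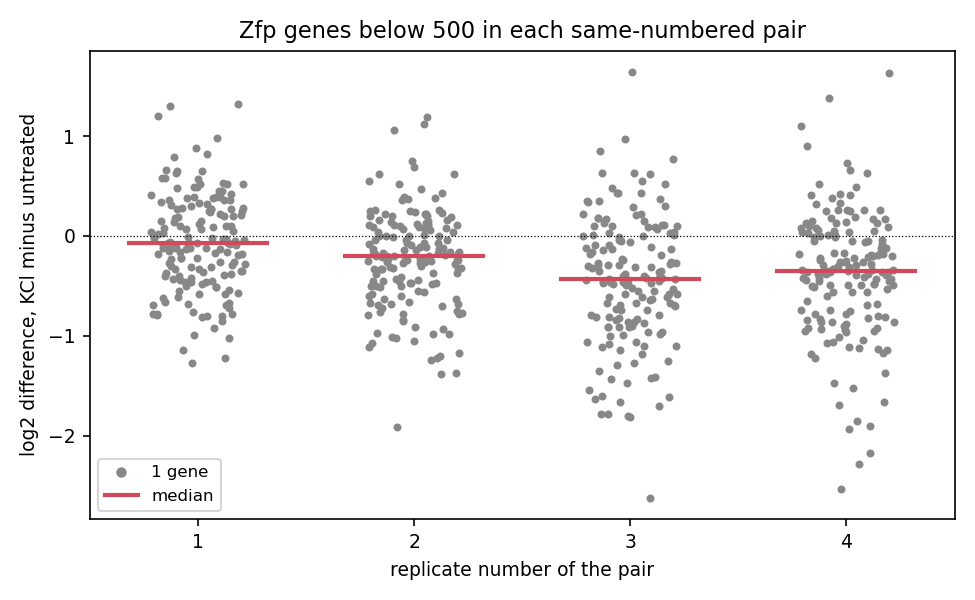
Log2 difference between the KCl and the untreated array of the same replicate number (vertical axis) for each of the 161 members (grey points), by replicate number (horizontal axis), with medians in red. The medians run from -0.08 in pair 1 to -0.44 in pair 3.

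Of 24 measured members listed for a known role, none rose or fell by limma after adjustment, and 5 had an unadjusted p below 0.05. Their median log2 change was -0.08 (range -0.68 to 0.52). Zfp42, Zfp217, Zfp488, Zfp467 and Zfp354a were dim, with group means of 4.17 to 4.67, below the median gene (4.76). RMA compresses differences there, and the part of compression in their small changes was not tested. Before adjustment, 58 of all 161 members and 2888 of the 22180 genes had a limma p below 0.05. Zfp143, Zfp238, Zfp335, Zfp91, Zfp161 and Zfp260, listed with them, had no probe set of their own under these symbols.

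Among regulators of pluripotency and imprinting, Zfp57, the KRAB protein that keeps imprinted regions methylated, read 8.05, 7.52, 8.14 and 8.16 untreated and 7.82, 8.21, 7.85 and 8.11 after KCl. The groups overlap throughout (log2 change 0.03, SE 0.166). Zfp42 (Rex1), a marker of pluripotent cells, stood at 0.01 (SE 0.097). Zfp281, which binds GC-rich DNA, was at 0.52 (adjusted p = 0.21) and Zfp322a at -0.66 (adjusted p = 0.402), while Zfp217, a corepressor partner amplified in tumours, was at -0.08.

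Zinc finger genes of neural development and function also overlapped between groups, with Zfp365 as the exception. Zfp365, whose product binds the neuronal scaffold Disc1, read 7.62, 7.69, 7.82 and 7.59 untreated and 7.12, 7.50, 7.39 and 7.51 after KCl. Its groups lay apart but the log2 change of -0.30 did not pass (SE 0.113, adjusted p = 0.275). Zfp189, studied in reward and stress circuits, was at 0.00 (SE 0.146). Zfp423, needed for cerebellar development, was at 0.32 (adjusted p = 0.772), Zfp462 at -0.18 and Zfp292 at -0.25. Zfp488 and Zfp24, which act in oligodendrocyte maturation, stood at 0.08 and -0.15.

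Of members that bind RNA, Zfp326, a subunit of the DBIRD complex that links transcription to splicing, read 6.44, 6.54, 6.61 and 6.47 untreated and 6.77, 6.77, 6.98 and 7.00 after KCl. The shift was small and the groups were separated, but it missed the threshold (log2 change 0.36, SE 0.094, adjusted p = 0.104). Zfp346, which binds double-stranded RNA, was at -0.59 (adjusted p = 0.387), Zfp106 at 0.12 and the p53 pathway gene Zfp385a at 0.09. Zfp318 read 7.84, 8.76, 8.47 and 8.10 untreated and 7.44, 8.21, 7.64 and 7.17 after KCl, lower in each pair. Its log2 change of -0.68 did not pass without the block (adjusted p = 0.3) and did with it (0.0322).

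Among the rest, Zfp110 and Zfp369, which bind the p75 neurotrophin receptor, were at -0.16 and -0.09. Zfp207, a spindle assembly factor, had a log2 change of 0.48 with overlapping groups (adjusted p = 0.506), and Zfp148, a GC-box binding factor, had -0.28 with separated ones (adjusted p = 0.231). The SUMO ligase gene Zfp451 was at -0.22, Zfp467, which acts in fat and bone cell fate, at 0.00 and the kidney repressor gene Zfp354a at -0.29. Zfp248 completes the 5 highest changes, at 0.62 (adjusted p = 0.24).

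The partners through which KRAB domains act were read on the same arrays. Of 27 measured genes of the KRAB corepressor machinery, none passed the threshold, where 1.02% of all genes fell and 1.34% rose. At those shares, no call among 27 genes says little. Their median log2 change was -0.03 (range -0.86 to 0.34). The scaffold Trim28 stood at 8.05 ± 0.23 untreated and 8.06 ± 0.12 after KCl (SD, n = 4 each), a log2 change of 0.02 (SE 0.129). The smallest p-values were those of Morc3, a nuclear body ATPase that silences transposable elements (7.836 ± 0.433 to 6.971 ± 0.310; -0.86, adjusted p = 0.12) and Ehmt1, a histone H3 methyltransferase (7.434 ± 0.092 to 6.927 ± 0.268; -0.51, adjusted p = 0.123). Before adjustment, 7 of the 27 had a limma p below 0.05, as did 2888 of all 22180 genes. Of the 7, Morc3, Smarcad1, Ehmt1, Setdb1, Atf7ip and Zmym2 were lower and Chd4 was higher. Setdb1 had -0.56 (adjusted p = 0.239) and passed in 1 of the 8 fits with 1 array left out, as did Morc3.

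Position in the genome was compared next, since the rule did not use it. In the RefSeq table (GRCm38.p6), 104 members had another Zfp gene within 1 Mb and 57 did not. Of the 104, 13 fell (12.5%) and none rose, with a median log2 change of -0.28. Of the 57, 4 fell (7.02%) and 1 rose, with a median of -0.09. Members with and without such a neighbour also differed in brightness, with median mean levels of 5.18 and 6.34. The part of brightness was not tested. The 5 called members without such a neighbour were Zfp11, Zfp131, Zfp169, Zfp341 and Zfp438. The median was -0.24 for members with 1 to 4 neighbours, -0.28 with 5 to 9 and -0.32 with 10 or more, while the shares that fell, 9.76%, 20.8% and 10.3%, did not follow that order. Neighbours are often paralogs of similar sequence, so probes may read more than 1 of them and their values may not be independent. Whether probes did so here was not tested.

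Chained at up to 1 Mb, 57 members formed 9 runs of 4 or more. All 9 run medians lay below 0, from -0.71 to -0.07, where 76.4% of all 161 members lay below 0 with a median of -0.24. The 57 members held 7 falls, spread over 6 of the runs, against 17 falls among all 161 (10.6%). That share lies near the share of all members, so these counts do not set the runs apart. The values differed widely inside a run. The longest run, of 11 members from Zfp180 to Zfp428, held 1 fall, Zfp93, and ranged from -0.90 to 0.19. The run of 10 from Zfp84 to Zfp146 had a median of -0.44, with Zfp74 at -1.08, Zfp84 at -0.86 and Zfp27 at -0.76, while Zfp383 stood at 0.05.

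In the run of 9 that ends with Zfp273, Zfp458 was at -0.74 and its neighbours Zfp457 and Zfp456 at 0.02 and 0.18. Zfp329 and Zfp128, both called, share a run of 5 with Zfp324 (-0.71), Zfp110 (-0.16) and Zfp446 (0.05), and its median of -0.71 was the lowest. Of the run around Zfp2, Zfp454 stood at -0.83 and Zfp354c at -0.66, while Zfp354a and Zfp354b were at -0.29 and -0.28. The 3 runs of 4 members held no call and had medians of -0.16, -0.07 and -0.13.

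**Figure D4:**
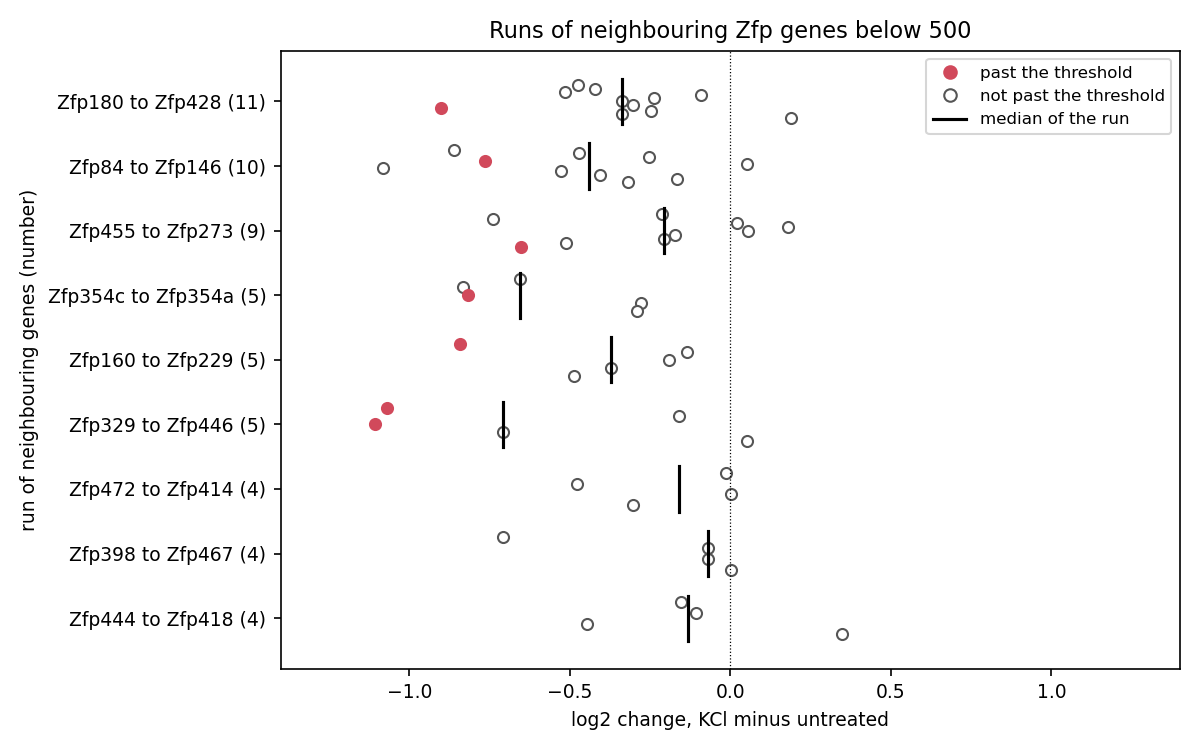
Log2 change after KCl (horizontal axis) of members in the 9 runs of 4 or more neighbouring genes (vertical axis, named by first and last gene with the number of members), filled red where past the threshold, with run medians as black bars. All medians lie below 0 and single genes range from -1.11 to 0.35.

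Promoter letters were counted over windows from 250 bases before to 50 after each RefSeq start, which matched 130 of the 161 members, 16 of them among the 17 that fell. The median of CG dinucleotides, taking the highest window of a gene, was 15.5 over the members and 15 over 16918 genes. Among the 65 members above 15, 7 fell (10.8%) and 1 rose, with a median log2 change of -0.17. Among the other 65, 9 fell (13.8%) and none rose, with a median of -0.31. Over all genes, 1.62% fell above 15 and 0.593% in the rest, with medians of -0.03 and 0.00. Rises ran the same way there, 194 of 8147 genes above 15 and 46 of 8771 in the rest. Those 2 parts also differed in brightness, with median mean levels of 6.53 and 4.12, against 5.68 and 5.18 for the members. The part of brightness was not tested, and 7 and 9 falls are too few to set against the shares of all genes.

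The full CRE, TGACGTCA, which reads the same on both strands, was found in 5 of the 130 members (3.85%), against 2.64% of genes and 1.79% of all 32851 windows. None of the 5 was called, where 8 of all 447 genes with a CRE fell (1.79%) and 25 rose, so no call among 5 genes says little. Zfp266 stood at 0.07, Zfp367 at 0.44, Zfp457 at 0.02, Zfp473 at 0.01 and Zfp72 at -0.92. The AP-1 letters TGANTCA, searched on both strands, were in 5 members as well (3.85%), against 8.39% of genes and 7.81% of windows. Of these Zfp329 fell, and Zfp458 (-0.74), Zfp239 (-0.50), Zfp57 (0.03) and Zfp385b (0.27) did not pass. Of all 1420 genes with these letters, 9 fell (0.634%) and 16 rose, and 1 of 5 members is too few to read against that share. No CRE holds the AP-1 letters, which differ in spacing.

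The windows of Zfp329, with an AP-1 match 182 bases before the start, and of Zfp72, with a CRE 23 bases before it, are given as the members of lowest change in each set. Capitals mark the match.
Zfp329, chr7:12818861-12819110, minus strand, GRCm38.p6: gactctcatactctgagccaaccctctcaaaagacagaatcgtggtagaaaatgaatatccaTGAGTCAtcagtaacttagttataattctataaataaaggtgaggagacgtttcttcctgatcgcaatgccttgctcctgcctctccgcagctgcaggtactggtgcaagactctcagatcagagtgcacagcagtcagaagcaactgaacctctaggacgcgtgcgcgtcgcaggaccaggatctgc
Zfp72, chr13:74390830-74391079, minus strand, GRCm38.p6: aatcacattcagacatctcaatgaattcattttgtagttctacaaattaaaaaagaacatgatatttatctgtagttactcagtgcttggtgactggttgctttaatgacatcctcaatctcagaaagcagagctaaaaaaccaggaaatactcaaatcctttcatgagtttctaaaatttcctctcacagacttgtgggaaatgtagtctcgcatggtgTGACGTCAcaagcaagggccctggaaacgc
Zfp72 (log2 values of 4.69, 4.88, 5.51 and 5.40 untreated, and 4.02, 4.04, 4.43 and 4.29 after KCl) had separated groups and passed with the replicate block as given above. A match of letters is no measurement of binding.

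Brightness of a probe set depends on its probes as well as on the transcript, and RMA values near background compress differences. By quartile of mean log2 value, the dimmest 41 members (3.82 to 4.56) held 1 fall and had a median log2 change of -0.13. The next 40 held 6 falls (median -0.24), the third quartile of 40 held 10 (5.36 to 6.80; median -0.47), and the brightest 40 held no fall and the 1 rise (6.82 to 9.89; median -0.23). In all, 107 of the 161 members were brighter than the median gene. No filter on low values was applied. The 3 brightest probe sets were those of Zfp207, Zfp148 and Zfp266, and the 3 dimmest those of Zfp296 (0.22), Zfp354b and Zfp366 (0.05).

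**Figure D5:**
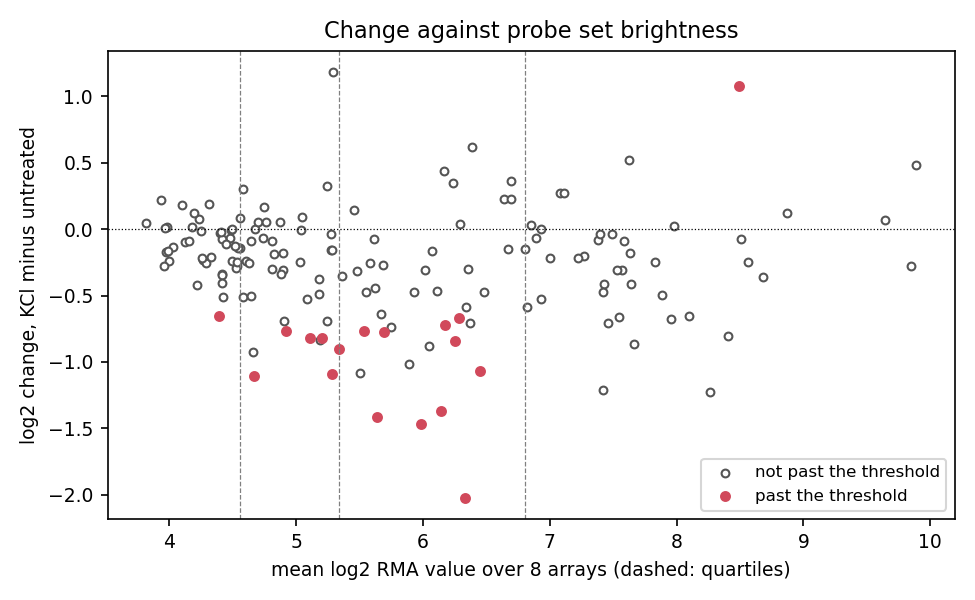
Log2 change after KCl (vertical axis) against the mean log2 RMA value over 8 arrays (horizontal axis) for the 161 members, red where past the threshold, with dashed lines at the quartiles of brightness. The third quartile holds 10 of the 17 falls, and the single call in the brightest quartile is Zfp131.

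The set ends at a number, not at a measured value. Just inside that limit, Zfp488 stood at 0.08 and Zfp493 at -0.51, and just outside it Zfp503 stood at -0.01 and Zfp507 at -0.98. The 200 Zfp genes with higher numbers had a median of -0.25, with 16 falls (8%) and 1 rise. No difference between the number ranges was tested.

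The list means of neuron markers were high on all arrays, at 10.3 to 10.7 untreated and 10.4 to 10.7 after KCl. Nefm was dimmer, at 5.80 to 7.50 over the 8 arrays. None of the 10 markers passed limma's test after adjustment or at an unadjusted p below 0.05 (median log2 change -0.04). Of 7 markers of excitatory and 5 of inhibitory neurons none passed either, with 2 and 1 below 0.05 before adjustment and medians of -0.21 and -0.09. With the replicate block, 1 of the 5 inhibitory markers passed as lower, Gad2 (log2 change -0.49, adjusted p = 0.0458 with the block and 0.832 without). Gad1, the inhibitory marker below 0.05 before adjustment, was higher (log2 change 1.08, limma adjusted p = 0.353 without the block and 0.0765 with it). Sst stood at 0.87, Slc32a1 at -0.09 and Npy at -0.13. Astrocyte markers averaged 8.70 to 9.57 and 8.80 to 9.36, with S100b dimmer at 4.10 to 5.51 over the 8 arrays. The list means of microglia and of the oligodendrocyte lineage lay at or below 5.14 on every array. Within the latter list Olig1 and Olig2, which also mark progenitors, were brighter, at 6.83 to 7.70 and 5.57 to 7.92 over the 8 arrays, while Mbp and Mog lay at or below 4.74. Markers of vascular and meningeal cells averaged 4.32 to 4.86 untreated and 4.40 to 4.89 after KCl, and none of the 8 passed. Within that list Kdr read 7.76, 8.17, 5.42 and 5.48 untreated and 7.91, 8.34, 5.62 and 5.18 after KCl. It was thus higher in replicates 1 and 2 of both groups. Markers of progenitor and cycling cells averaged 5.50 to 6.21 untreated and 5.88 to 6.64 after KCl. None of those 7 passed without the block, 1 had an unadjusted p below 0.05, and their median log2 change was 0.51. With the block, 1 of the 7 passed as higher, Pax6 (log2 change 0.92, adjusted p = 0.0461 with and 0.545 without). The part of these markers in the changes of the Zfp genes was not tested. No array fell to 0 for a marker, since RMA values have no true zero.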

How the data were processed

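The authors deposited log2 probe set values for 8 arrays. Per the submitters' processing notes, RMA (background correction, between-array normalization and summary of probes) and Partek were used, with no version or setting named. Per the labels' protocols, the labelling kit was Affymetrix WT Plus. Scanner files were not used here, so signal over background is unknown for single probe sets. The number of arrays limits the precision, and RMA compresses differences between dim values. Array medians over genes were 4.69 to 4.82.

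Of 34472 probe sets, 23521 carry 1 gene symbol in the platform annotation, and they gave 22180 genes. The 161 members had 173 probe sets, with 11 members having several. All 161 matched the RefSeq table by identifier. A further 6 Zfp symbols in this number range occur only on probe sets with several symbols and are not members. No source used here names the build of the array annotation, so the only coordinates printed are those of RefSeq promoters. Protein sequences were not used here, and the planned counts of fingers and KRAB domains were not made.

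The fit was limma 3.58.1 in R 4.3.3 (lmFit, eBayes, group as the single term, two-sided), adjusted by Benjamini-Hochberg over all genes at 0.05, and was tested on simulated data. Members, gene lists and alternatives were chosen with earlier results of these data known. Named are all members past the threshold, the 5 highest and 5 lowest changes, the 3 brightest and 3 dimmest probe sets and listed members with a known role, 49 in all, of which 18 passed; of other lists, members past the threshold and the 2 smallest p. Further members named for the replicate block, for neighbours or for promoter letters were chosen after their values were seen. So were Trim28, Setdb1, Chd4, Smarcad1, Atf7ip, Zmym2, Nefm, S100b, Olig1, Olig2, Mbp, Mog, Gad1, Gad2, Sst, Slc32a1, Npy, Kdr and Pax6.

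Titles number the replicates 1 to 4 in both groups. Deviations from group means, correlated across genes, gave 0.64, 0.23, 0.41 and 0.37 for same-numbered arrays and at most 0.30 for others, so the numbers were taken to pair the arrays, and a fit with the number as a block was added. Its median standard error over genes was 0.119, against 0.142 without. Other alternatives were each array left out, both arrays numbered 1 left out, quantile normalization repeated, centring on array medians, brighter genes only, the mean of all probe sets, trended and robust eBayes, and array weights. Figures used matplotlib 3.10.9 in Python 3.11.15.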

Additional observations from a re-analysis of the deposited data

Results flagged for a closer look

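In 4 of the 49 named members, each with 2 groups, 1 array of a group lay farther from the other 3 than Dixon's 95% limit for groups of 4 allows. About 1 group in 20 does so by chance, so flags in this number can arise by chance alone. Untreated replicate 1 was low for Zfp292, at 7.39 against 8.08 to 8.17 in the other 3, and for Zfp354a, at 3.94 against 4.82 to 5.00. Untreated replicate 2 was low for Zfp57, at 7.52 against 8.05 to 8.16. KCl replicate 3 was low for Zfp120, at 4.27 against 4.85 to 4.96, and the fall of Zfp120 passed without that array as well.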

How the results depend on the processing

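The count of 17 falling members ranged from 7 to 18 when single arrays were left out, and the count that rose from 1 to 2. Shares of all genes were counted only for the main fit, the block and the fit without both arrays numbered 1. The other counts in this paragraph were not set against all genes. With the replicate block 25 fell and 2 rose. The block ended no call except that of Zfp27 and added the 10 named in the results. In a fit chosen after seeing the data, with the block and without both arrays numbered 1, 18 fell and 2 rose; 8 of the 18 calls were lost (adjusted p up to 0.12), Zfp120 (0.0507) and Zfp169 (0.0676) among them, and 10 other members passed. The counts of falls were 15 with quantile normalization repeated, 14 with centring, 15 among brighter genes (where Zfp128 and Zfp273 were too dim to be tested), 16 with probe sets averaged, 12 with trended and robust eBayes and 23 with array weights, and 1 member rose in each. Repeated quantile normalization and centring ended the calls of Zfp128, Zfp27 and Zfp438, and trended and robust eBayes those of Zfp160, Zfp169, Zfp27, Zfp37, Zfp433 and Zfp438 (adjusted p up to 0.118). The member median stayed between -0.33 and -0.18. No named member past the threshold changed sign in those of the 17 alternatives in which it was tested, all 17 except for Zfp128 and Zfp273. Over named members and alternatives, 723 values kept their side of the threshold, 90 lost it and 10 gained it. All 90 losses belong to the 18 called members. The 723 also count named members outside the main call that stayed outside it, so they do not measure how stable the calls are. The cause of these differences was not tested. The number of arrays and the compression of dim values limit what can be seen.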
